A study of Drosophila melanogaster with 4 samples.

Results

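The small heat-shock protein genes of D. melanogaster were followed in the heads of old NelfA*/+ flies and their control siblings. They were taken by name from the deposited table of read counts, as 9 genes that code for proteins of the alpha-crystallin family: Hsp23, Hsp26, Hsp27, Hsp67Ba, Hsp67Bc, CG4461, l(2)efl, CG7409 and CG13133. The table holds 13926 genes. Of the 9, 6 had counts and all 6 had enough of them for a test, while l(2)efl, CG7409 and CG13133 were listed at 0 in all 4 libraries and were left out of every comparison.

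Polyadenylated RNA was sequenced from pooled heads of D50 (day 50 of adult life) males, 2 libraries from each of the genotypes, control siblings (+/+) and NelfA*/+. NelfA*/+ flies carry the Nelf-A KG09483 allele, a P-element insertion, on 1 of the 2 copies of Nelf-A, the gene for a subunit of the negative elongation factor that holds RNA polymerase II near the start of genes. The line had been backcrossed to w1118 males for many generations, and the controls are their siblings. The labels name no heat shock or drug for either genotype, and the comparison asks how the heterozygous insertion goes with gene expression in the ageing head.

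Small heat-shock proteins bind unfolding proteins without using ATP, keep them from aggregating and hand them to the Hsp70 system for refolding. Their genes in Drosophila are switched on by the heat-shock factor Hsf after heat and other stress, several are also induced by the moulting hormone ecdysone during development, and several are known for a polymerase that pauses just downstream of the start site before induction. In flies several of them are also known to be expressed more with age.

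The libraries held between 42985746 and 45172099 counts on genes. Nelf-A, given first as a check of the labels, had normalised counts of 3598 and 3365 in the control siblings and of 2386 and 2398 in NelfA*/+ heads, so both NelfA*/+ libraries were lower, as labelled. Its log2 fold change was -0.54 (SE 0.07) with an adjusted p of 0.0411, from the quasi-likelihood test of edgeR after adjusting by Benjamini-Hochberg over the 9609 genes tested. With the replicate number as a block the adjusted p of Nelf-A was 0.0537. Normalised counts are counts divided by each library's TMM-scaled size relative to the mean, and all p-values below come from this test unless another is named. Markers of photoreceptors were abundant in every library, but Arr2 (a photoreceptor arrestin) and the glial genes moody and alrm were listed at 0 throughout. The pan-neuronal gene elav had 0 counts in both control libraries and 8 and 6 in the NelfA*/+ libraries. The other neuronal genes listed, nSyb, brp and Syt1, had at least 15259 counts in every library. The other glial genes listed, repo, Eaat1 and Gs2, had at least 2439. A value at or near 0 for single markers thus does not show that a cell type was missing or differed between the genotypes. Each library is a pool of heads, so flies within a pool were not measured separately.

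In the heads of NelfA*/+ flies, 5 of the 6 small heat-shock protein genes had a higher mean than in control siblings and CG4461 had a lower one. Hsp23 was 2.27-fold, Hsp27 2.05-fold, Hsp67Ba 1.86-fold and Hsp67Bc 1.58-fold the control level, and for these 4 genes the lower NelfA*/+ library exceeded the higher control library. None of the 6 passed an adjusted p of 0.05 by edgeR's quasi-likelihood test, which called 180 of 9609 genes (1.87%) in either direction. At an unadjusted p below 0.05 the test took 4 of the 6 as higher, where 9.60% of all genes were, and 1 as lower, where 10.7% were. DESeq2's Wald test called the same 4 genes as higher at an adjusted p below 0.05, against 4.18% of all genes, and limma-voom called 0, against 1.23% of all genes in either direction. The median log2 fold change of the 6 genes was 0.77, beside 0.011 over all genes tested.

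**Figure D1:**
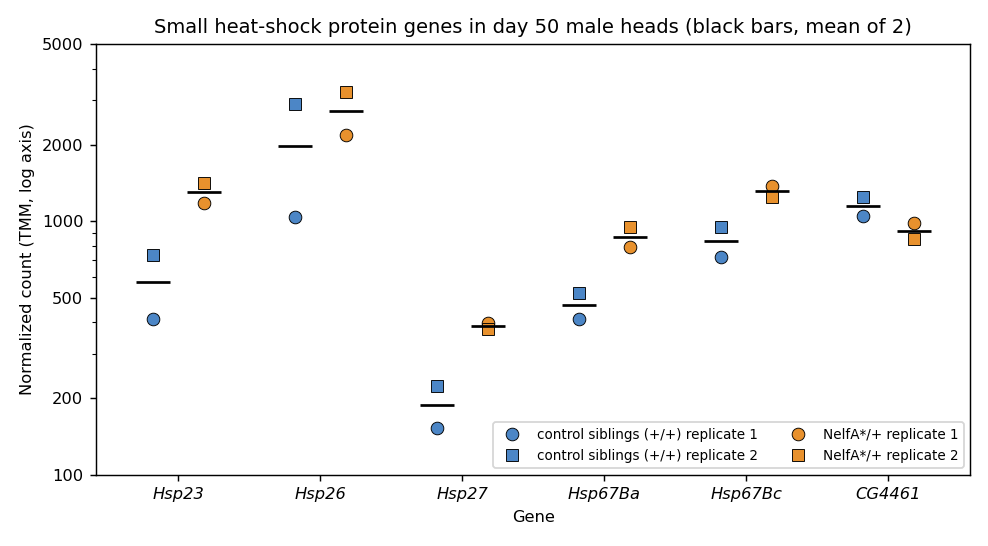
Normalised read counts (TMM, logarithmic axis) of the 6 small heat-shock protein genes with counts, 1 point per library, with the mean of the 2 libraries of each genotype as a black bar. The NelfA*/+ points lie above both control points for Hsp23, Hsp27, Hsp67Ba and Hsp67Bc and below both for CG4461, while the 4 Hsp26 values, from 1043 to 3243, overlap.

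Hsp23, Hsp26 and Hsp27 are the classical small heat-shock proteins, of which Hsp23 and Hsp26 are found in the cytosol and Hsp27 in the nucleus. Hsp23 had normalised counts of 410.2 and 736.4 in control siblings, replicates 1 and 2, and of 1179 and 1419.8 in NelfA*/+ flies. The lower of the NelfA*/+ libraries was 1.60 times the higher of the controls, although the control libraries themselves were 1.80-fold apart. The means were 573.3 ± 230.7 and 1299.5 ± 170.0 (SD, n = 2 each), with a log2 fold change of 1.18 (SE 0.29, 95% confidence interval 0.44 to 1.92, adjusted p = 0.117). DESeq2 gave the same log2 fold change of Hsp23 with an adjusted p of 0.00158. EdgeR with the replicate number as a block gave 1.23 with an adjusted p of 0.0169. Other fits did not call Hsp23, with adjusted p-values of 0.11 by limma-voom and 0.226 by edgeR with robust dispersions. Without a filter on low counts the adjusted p by edgeR was 0.16.

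Hsp27 had normalised counts of 153.4 and 223.7 in control siblings and of 397.1 and 375.3 in NelfA*/+ flies. The groups did not overlap, with the lowest NelfA*/+ value of Hsp27 at 1.68 times the highest control value, which was the widest separation among the 6 genes. The means were 188.6 ± 49.69 and 386.2 ± 15.38 (SD, n = 2 each), with a log2 fold change of 1.03 (SE 0.21, 95% confidence interval 0.50 to 1.56, adjusted p = 0.0867 by edgeR and 0.00162 by DESeq2). Hsp27 was the least abundant of the 6 genes by count in every library, with raw counts between 153 and 399, and it overlaps the pseudogene CR43483 on the opposite strand by 49 bases.

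Hsp26 had the most counts of the 6 genes in all libraries but control replicate 1, where CG4461 had 1044 and Hsp26 1040. Its normalised counts were 1043 and 2900.5 in control siblings and 2192 and 3243 in NelfA*/+ flies. The genotypes overlapped, since the lower NelfA*/+ library was 0.76 times the higher control library. The means were 1972 ± 1313 and 2718 ± 743.0 (SD, n = 2 each), with a log2 fold change of 0.46 (SE 0.50, adjusted p = 0.663). The 95% confidence interval of Hsp26, -0.81 to 1.74, holds changes in either direction, including ones as large as that of Hsp23. Without control replicate 1 the log2 fold change of Hsp26 was -0.10, and without control replicate 2 it was 1.38.

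Hsp67Bc is a small heat-shock protein that works with the co-chaperone Starvin in the clearance of misfolded proteins. Its normalised counts were 723.1 and 944.7 in control siblings and 1378 and 1251 in NelfA*/+ flies, without overlap. The means were 833.9 ± 156.8 and 1315 ± 89.72 (SD, n = 2 each), with a log2 fold change of 0.66 (SE 0.14, 95% confidence interval 0.28 to 1.03, adjusted p = 0.102 by edgeR and 0.00552 by DESeq2). The gene for Starvin, stv, had normalised counts of 10035 and 13882 in control siblings and of 11362 and 13248 in NelfA*/+ flies, so its genotypes overlapped (log2 fold change 0.04, SE 0.18, adjusted p = 0.928).

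Hsp67Ba is another alpha-crystallin gene of the same cluster. Its normalised counts were 413.2 and 520.4 in control siblings and 788.2 and 945.1 in NelfA*/+ flies, again without overlap. The means were 466.8 ± 75.8 and 866.7 ± 111.0 (SD, n = 2 each), with a log2 fold change of 0.89 (SE 0.15, 95% confidence interval 0.50 to 1.29). It had the smallest p of the 6 genes with edgeR (unadjusted p = 0.00214, adjusted p = 0.0682) and with DESeq2 (adjusted p = 0.000253). With the replicate block its adjusted p was 0.012, and with limma-voom it was 0.0758. Over 1375 bases Hsp67Ba overlaps the antisense RNA gene asRNA:CR43481, which has no entry of its own in the count table. The strand setting of the counting is not given in the sources used here. Of protein-coding genes inside another on the opposite strand, 997 of 998 were at 0, which counting by strand would hardly give. The values of Hsp67Ba, 1733 bases long, can therefore not be assigned to its sense mRNA alone.

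CG4461 was the exception in direction. Its normalised counts were 1047 and 1250.1 in control siblings and 982.3 and 848.9 in NelfA*/+ flies. Both NelfA*/+ libraries were below both controls, but the higher of them was 0.94 times the lower control, so the gap between the genotypes was small. The means were 1149 ± 143.6 and 915.6 ± 94.26 (SD, n = 2 each), with a log2 fold change of -0.33 (SE 0.12, 95% confidence interval -0.64 to -0.01, adjusted p = 0.236 by edgeR and 0.273 by DESeq2). None of the 12 alternative fits called CG4461.

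In all, 4 of the 6 genes had both NelfA*/+ libraries above both controls, where 26.1% of the genes tested did, and 1 had both below, where 26.0% did. With the replicate number as a block, Hsp23 and Hsp67Ba passed an adjusted p of 0.05 as higher, against 1.61% of all genes. Nothing in the labels ties same-numbered libraries together. For Hsp26 the difference between the genotypes on the log2 scale, 0.46, was smaller than the gap between its control libraries, 1.48, and between its NelfA*/+ libraries, 0.56. Fewer cells of a type and less RNA per cell cannot be told apart in RNA from whole heads.

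**Figure D2:**
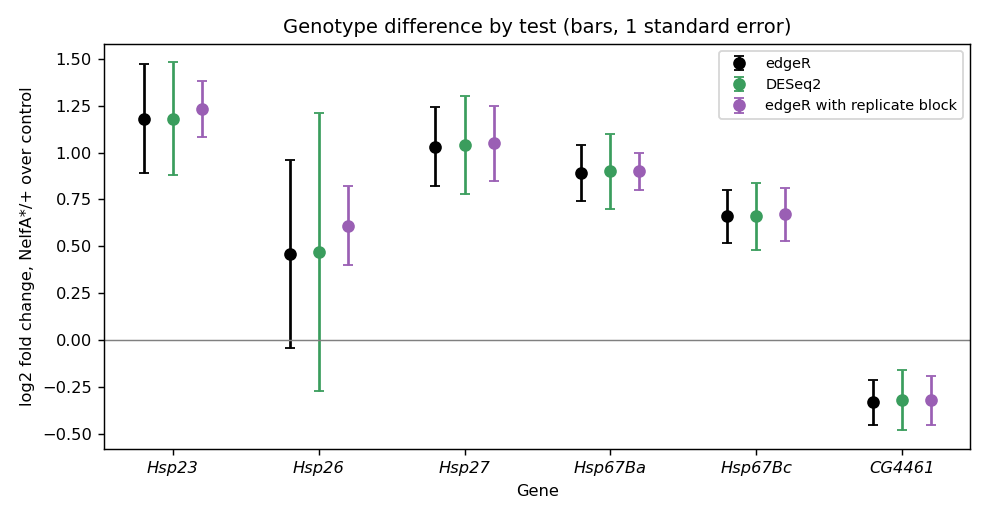
Log2 fold change (NelfA*/+ over control siblings) of the 6 genes, from edgeR, DESeq2 and edgeR with the replicate number as a block, with bars of 1 standard error. The estimates lie close together for each gene, from 0.46 to 0.61 for Hsp26 and from 1.18 to 1.23 for Hsp23, and the bars of Hsp26 are the longest.

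The control libraries were not alike for these genes. All 6 were higher in control replicate 2 than in control replicate 1, where 51.1% of all genes were. The ratio of replicate 2 to replicate 1 was 2.78 for Hsp26, 1.80 for Hsp23, 1.46 for Hsp27, 1.31 for Hsp67Bc, 1.26 for Hsp67Ba and 1.19 for CG4461. Among all genes tested, 1.52% had a larger gap between the controls than Hsp26 and 3.72% a larger one than Hsp23, whereas 23.1% had a larger one than CG4461. The median of this gap over the 6 genes was 0.46 on the log2 scale, beside 0.005 over all genes. In NelfA*/+ flies 3 of the 6 genes were higher in replicate 2 and 3 were lower, with a median gap of 0.09 on the same scale. Because the 6 genes shared this gap in the same libraries, their values are not 6 separate pieces of evidence.

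Leaving out single libraries showed where each value rested. The log2 fold change of Hsp23 lay between 0.82 and 1.66, that of Hsp27 between 0.78 and 1.33, that of Hsp67Ba between 0.73 and 1.07, that of Hsp67Bc between 0.47 and 0.86, and that of CG4461 between -0.45 and -0.19. The lowest value of each of the 4 higher genes was the one without control replicate 1 and the highest the one without control replicate 2. Without NelfA*/+ replicate 1, edgeR called Hsp23 (adjusted p = 0.0323) and Hsp67Ba (adjusted p = 0.00805). Without NelfA*/+ replicate 2 it called Hsp27 (adjusted p = 0.0333), Hsp67Ba (adjusted p = 0.0326) and Hsp67Bc (adjusted p = 0.0317). Those fits called 1.86% and 3.61% of all genes as higher, in this order, against 62 of 9609 genes with all 4 libraries. Without control replicate 1 or without control replicate 2 it called 0 of the 6, and over all genes it then called 2 in each case. At an unadjusted p below 0.05, Hsp23, Hsp27, Hsp67Ba and Hsp67Bc were higher without control replicate 1 (7.65% of all genes) and CG4461 was lower (7.07% of all genes), and without control replicate 2 the same 4 genes and Hsp26 were higher (6.22% of all genes). In these fits the genotype left with 1 library is assumed to vary like the other.

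**Figure D3:**
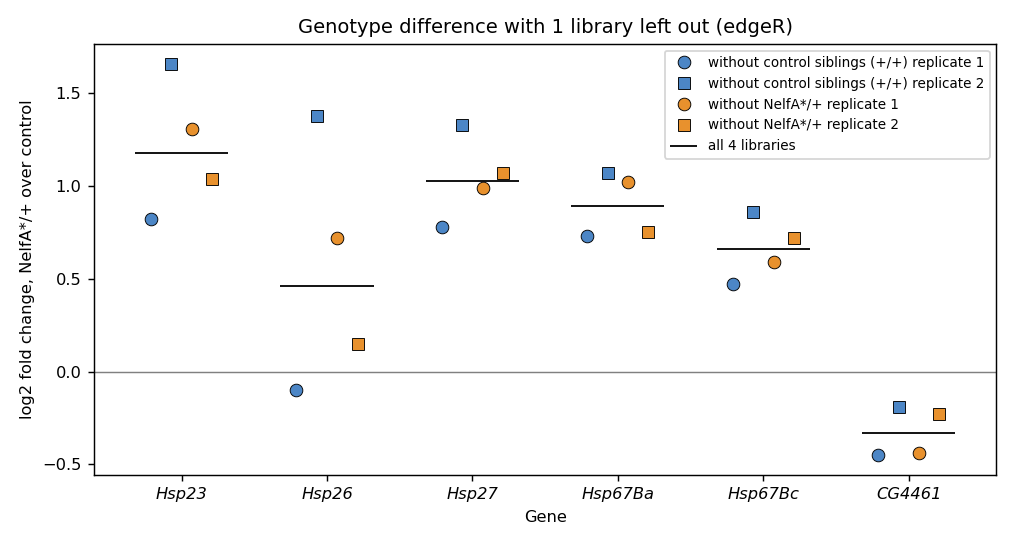
Log2 fold change (NelfA*/+ over control siblings) of each gene with all 4 libraries and with each library left out in turn. Hsp26 moves from -0.10 without control replicate 1 to 1.38 without control replicate 2, while Hsp23, Hsp27, Hsp67Ba and Hsp67Bc stay above 0 and CG4461 stays below 0 in all 5 fits.

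Levels were compared between genes per length, as RPKM (reads per kilobase of exon per 1000000 reads), computed from the deposited counts with TMM-scaled library sizes. In control siblings Hsp26 had the highest RPKM of the 6 with 43.8 ± 29.2, then CG4461 with 29.8 ± 3.73, Hsp67Bc with 19.0 ± 3.57, Hsp23 with 14.6 ± 5.86, Hsp67Ba with 6.05 ± 0.982 and Hsp27 with 2.59 ± 0.684 (SD, n = 2 each). The 2 control values of Hsp26, 23.2 and 64.5, enclosed those of CG4461, 27.2 and 32.5, and the values of Hsp67Bc, 16.4 and 21.5, overlapped those of Hsp23, 10.4 and 18.7. The other neighbours in this order did not overlap, but per coding length in place of exon length the control values of Hsp67Ba, 6.95 and 8.75 RPKM, overlapped those of Hsp27, 5.39 and 7.86 RPKM. In NelfA*/+ flies the order of the RPKM was Hsp26 with 60.4 ± 16.5, Hsp23 with 33.0 ± 4.32, Hsp67Bc with 29.9 ± 2.04, CG4461 with 23.8 ± 2.45, Hsp67Ba with 11.2 ± 1.44 and Hsp27 with 5.31 ± 0.212 (SD, n = 2 each). There too Hsp67Ba and Hsp27 overlapped per coding length, with 13.3 and 15.9 against 14.0 and 13.2 RPKM. Hsp23 thus stood below CG4461 in both control libraries and above it in both NelfA*/+ libraries. In NelfA*/+ flies Hsp23 and Hsp67Bc overlapped, with 30.0 and 36.1 against 31.4 and 28.5 RPKM, and were not separated.

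Levels were also summed over the 6 genes, as counts per 1000000 of each library's TMM-scaled size (CPM). The sums came to 85.1 and 148 CPM in control siblings and to 155 and 182 CPM in NelfA*/+ flies. Both NelfA*/+ sums were higher than both control sums, but control replicate 2 was nearer to them than to control replicate 1. The mean sum was 116 ± 44.2 CPM in control siblings and 168 ± 18.5 CPM in NelfA*/+ flies (SD, n = 2 each), a ratio of 1.45 (two-sided exact permutation p = 0.333, the smallest that 2 libraries against 2 can give). Without Hsp26 the sums were 61.7 and 82.5 CPM against 106 and 109 CPM, a ratio of 1.49. Summed over Hsp23, Hsp27, Hsp67Ba and Hsp67Bc, the 4 genes with a higher mean and no overlap, the ratio was 1.88, which follows from how those genes were picked. Hsp26 made up 27.5% and 44.1% of the sum in control siblings and 31.7% and 40.1% in NelfA*/+ flies, so its share overlapped. The share of CG4461 was 27.6% and 19.0% in control siblings and 14.2% and 10.5% in NelfA*/+ flies, and that of Hsp23 was 10.8% and 11.2% against 17.0% and 17.6%.

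**Figure D4:**
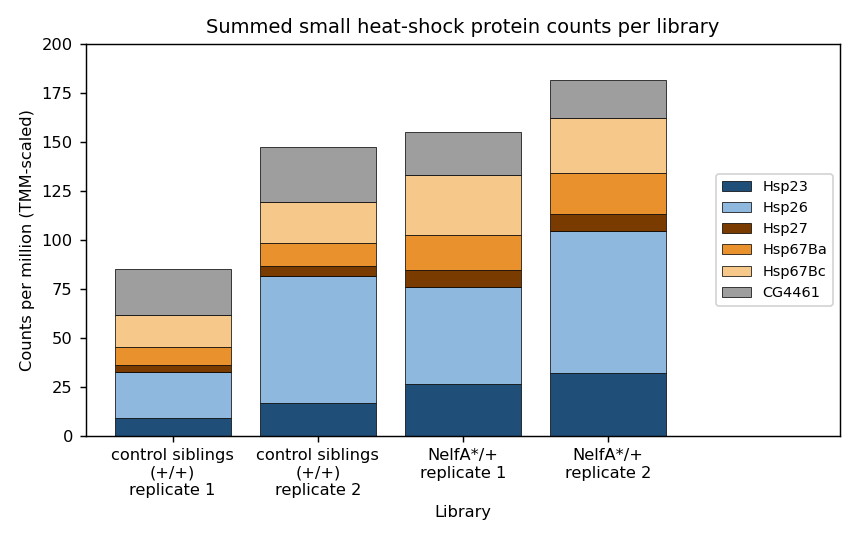
Summed CPM (TMM-scaled) of the 6 small heat-shock protein genes in each library, split by gene. The stacks reach 85.1, 148, 155 and 182 from left to right, and the Hsp26 band differs most between the control libraries.

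All 6 genes with counts lie in 1 cluster on chromosome arm 3L (Ensembl annotation of BDGP6), between positions 9371511 and 9385694, or 14.2 kb, with 3 on each strand. In this order stand Hsp67Bc (FBgn0001229, reverse strand, 9371511 to 9372497), CG4461 (FBgn0035982, forward, 9375430 to 9376293), Hsp26 (FBgn0001225, reverse, 9376418 to 9377427), Hsp67Ba (FBgn0001227, reverse, 9377802 to 9379534), Hsp23 (FBgn0001224, forward, 9381882 to 9382765) and Hsp27 (FBgn0001226, forward, 9384063 to 9385694). CG4461 and Hsp26 run towards each other and are 124 bp apart. CG4461, the gene with the lower mean in NelfA*/+ flies, thus stands inside the cluster, between Hsp67Bc (log2 fold change 0.66), 2932 bp away, and Hsp26 (log2 fold change 0.46). Hsp67Ba and Hsp23 are transcribed away from each other, 2347 bp apart, with log2 fold changes of 0.89 and 1.18. Hsp23 and Hsp27, 1297 bp apart on the same strand, had log2 fold changes of 1.18 and 1.03.

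The genes around the cluster did not share its direction. Within 25 kb on either side, 13 other genes were tested, of which 7 had a higher and 6 a lower mean in NelfA*/+ flies, with log2 fold changes between -0.55 and 0.33 and a median of 0.012. In 4 of the 13 both NelfA*/+ libraries were above both controls, where 26.1% of all genes were, and in 5 both were below, where 26.0% were. Among them edgeR called UGP, the gene for UTP-glucose-1-phosphate uridylyltransferase, as lower (log2 fold change -0.55, adjusted p = 0.0486). The log2 fold changes of Hsp23, Hsp27, Hsp67Ba, Hsp67Bc and Hsp26 were all above the highest of these 13.

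**Figure D5:**
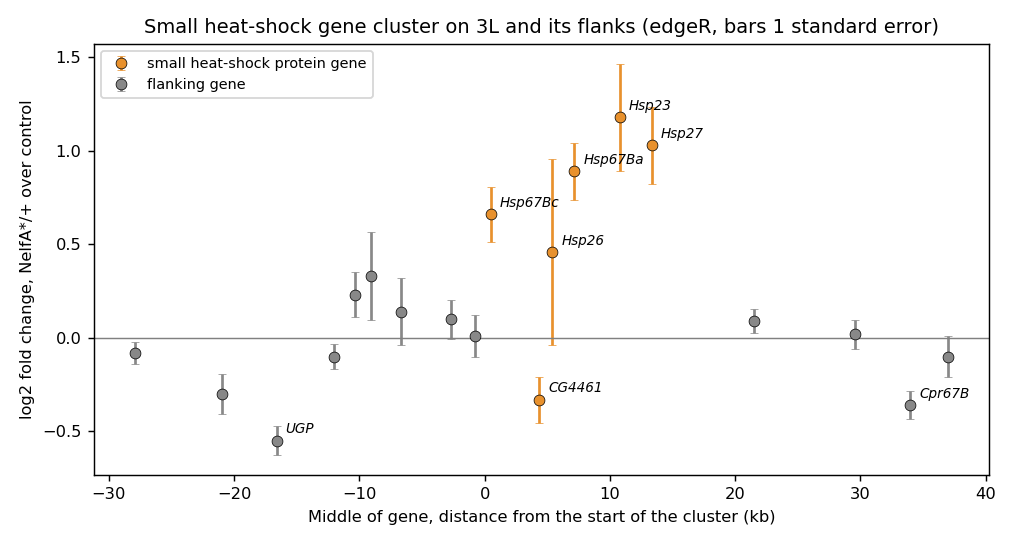
Log2 fold change (NelfA*/+ over control siblings) of the small heat-shock protein genes and of the other tested genes within 25 kb, by distance along chromosome arm 3L from the start of the cluster, with bars of 1 standard error. The 13 neighbouring genes lie between -0.55 and 0.33, and 5 of the 6 small heat-shock protein genes lie above that range.

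Hsp22, a small heat-shock protein of mitochondria in the same cluster, was listed at 0 in every library and could not be followed. In the annotation it lies inside CG4456 (Hsp67Bb) on the same strand, which had 2, 0, 0 and 1 counts. The 3 genes of the set that were listed at 0 are placed alike: l(2)efl lies inside St3 on chromosome arm 2R, CG7409 inside CG32373 on 3L and CG13133 inside CG44153 on 2L. Of the protein-coding genes that lie inside another on the opposite strand, 997 of 998 were at 0, and on the same strand 774 of 782, beside 623 of 12057 (5.17%) of those not inside another. A 0 for Hsp22, l(2)efl, CG7409 or CG13133 is therefore no measurement of their RNA in the head. The enclosing genes had counts of 1608, 1891, 1871 and 1559 for St3, of 479, 394, 228 and 215 for CG32373 and of 1486, 1578, 1642 and 1902 for CG44153, in control replicates 1 and 2 and NelfA*/+ replicates 1 and 2.

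CG14207, an alpha-crystallin family gene on the X chromosome outside the cluster, was much more abundant, at 159.6 ± 12.0 RPKM in control siblings and 180.5 ± 3.86 RPKM in NelfA*/+ flies (SD, n = 2 each). Its CPM was 1.13 times the control level, with a log2 fold change of 0.18 (SE 0.09, adjusted p = 0.334 by edgeR and 0.344 by DESeq2). Both NelfA*/+ libraries of CG14207 lay above both controls, but by less than those of Hsp23, Hsp27, Hsp67Ba or Hsp67Bc.

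The proteins that take over substrates from small heat-shock proteins were counted as a list of 7, the Hsp70 and Hsp90 relatives Hsp68, Hsc70-4, Hsc70Cb and Hsp83, the Hsp40 gene DnaJ-1, stv and the autophagy receptor ref(2)P. All 7 had a higher mean in NelfA*/+ flies, with a median log2 fold change of 0.67 beside 0.011 over all genes, and 6 of them had no overlap, where 26.1% of all genes lay on that side without overlap. Hsp68 and Hsp83 are named in the study of these samples and the list was chosen with results known, so it is no independent evidence of a direction. The same holds for the small heat-shock genes, which were also chosen with earlier results known. Of these the study measured Hsp23 and Hsp27 by RT-PCR in NelfA*/+ brains. It also measured Hsp genes by RT-PCR in D50 male heads, but its text does not name which. It reported higher Hsp27 after knockdown of NELF-A or NELF-E, in brains and in S2 cells treated with hydrogen peroxide. EdgeR's test called 0 of the 7, against 1.87% of all genes, and 5 were higher at an unadjusted p below 0.05, against 9.60%. DESeq2 called 5 as higher, against 4.18% of all genes. Hsp68, an inducible Hsp70, had normalised counts of 802.3 and 1362 in control siblings and of 3032 and 3624 in NelfA*/+ flies (log2 fold change 1.62, SE 0.27, adjusted p = 0.0629). Hsp83, the fly Hsp90, had a log2 fold change of 1.57 (SE 0.29, adjusted p = 0.0751). With the replicate block their adjusted p-values were 0.00495 for Hsp68 and 0.0184 for Hsp83, where 1.61% of all genes passed as higher. The rest of the list did not pass in that fit, with adjusted p-values between 0.0927 (Hsc70Cb) and 0.926 (stv). Like the small heat-shock genes, Hsp68 and Hsp83 were higher in control replicate 2 than in control replicate 1, with raw counts of 1419 against 800 and of 66914 against 37887.

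Among 12 regulators and pausing factors, edgeR called only Nelf-A, the mutated gene itself, as lower, against 1.87% of all genes in either direction. The list had 8 higher and 4 lower means and a median log2 fold change of 0.04. Without overlap 2 were higher (26.1% of all genes) and 2 lower (26.0% of all genes). Hsf, the factor that activates these genes, had normalised counts of 3251 ± 198.1 in control siblings and of 3377 ± 38.73 in NelfA*/+ flies (SD, n = 2 each; log2 fold change 0.05, adjusted p = 0.727). The mRNA of Hsf does not report its activity, which is set by trimerization and modification of the protein. The other subunits of the negative elongation factor had log2 fold changes of 0.09 (NELF-B, adjusted p = 0.697), -0.06 (TH1, adjusted p = 0.685) and 0.08 (Nelf-E, adjusted p = 0.756). Trl, which codes for the GAGA factor that opens these promoters, had between 15 and 31 counts per library and is poorly measured.

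Markers of other tissues differed between the genotypes too. The summed level of 7 gut markers was 10.4 and 10.3 CPM in control siblings and 655 and 107 CPM in NelfA*/+ flies. Jon65Aiii, Jon65Aiv, Alp2 and betaTry had at most 5 counts in either control library. They passed the filter on low counts only through the NelfA*/+ libraries, so a count of them as higher or called is no test of direction. Mal-A1 had 451 and 466 counts in control siblings and 11704 and 894 in NelfA*/+ flies (adjusted p = 0.177 by edgeR). Jon25Bii and lambdaTry had too few counts for a test. Between the NelfA*/+ libraries the gut marker sum differed widely, whereas the summed small heat-shock CPM was 155 and 182 in the same libraries. All 7 head fat body markers had a lower mean in NelfA*/+ flies (median log2 fold change -0.56), 6 of them without overlap, where 26.0% of all genes were. EdgeR called 0 of the 7, against 1.87% of all genes in either direction, with 5 lower at an unadjusted p below 0.05 (10.7% of all genes). DESeq2 called 4 as lower (4.84% of all genes). Control replicate 1, the library with the lowest small heat-shock counts, had the highest sum of these markers, 6225 CPM against between 4755 and 5065 CPM in the other libraries. Most of this sum was apolpp, with normalised counts of 240948 in control replicate 1 and 184062 in control replicate 2. Lsp2 (16927 against 17198) and Yp3 (3017 against 3243) were lower in control replicate 1 than in control replicate 2, and Yp1, Yp2, fit and to were higher. Of 10 muscle markers 9 had a higher mean (median log2 fold change 0.15), 6 of them without overlap (26.1% of all genes). Act57B was lower without overlap (26.0% of all genes), and the sums lay between 4560.2 and 4861 CPM. EdgeR called 0 of the 10, against 1.87% of all genes in either direction. At an unadjusted p below 0.05 it took 2 of the 10 (Mlc2, Mlc1) as higher, where 9.60% of all genes were. DESeq2 called Mhc, Mlc1 and Mlc2 as higher (4.18% of all genes) and Act57B as lower (4.84% of all genes). Sums of glial markers lay between 2051 and 2310.5 CPM, of neuronal markers between 2578 and 3779 CPM, of photoreceptor markers between 46592 and 55283 CPM, of haemocyte markers between 156 and 224 CPM and of testis markers between 0.112 and 1.98 CPM. Among the neuronal markers nSyb was higher without overlap (26.1% of all genes), while brp and Syt1 overlapped. DESeq2 called nSyb as higher (adjusted p = 0.0491, 4.18% of all genes), and edgeR did not (adjusted p = 0.268). No photoreceptor, glial or haemocyte marker was called by either test. The part of these tissues in the values of the small heat-shock genes was not tested.

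Finally, the genes whose pattern over the 4 libraries was most like the mean of the 6 were listed, by the distance between profiles of log2 CPM centred on the mean of each gene. The mean profile of the 6 was -0.64 and -0.02 in control siblings and 0.28 and 0.39 in NelfA*/+ flies. The nearest were Fcp3C (distance 0.068), the cuticle protein gene Cpr47Ef (distance 0.077), the glutathione S-transferase gene GstE3 (distance 0.154), Lsd-1, a perilipin of lipid droplets (distance 0.170), and mei-38 (distance 0.183). With 4 libraries many genes come near any profile by this measure, and Fcp3C with between 13 and 45 counts and mei-38 with between 1 and 17 counts are poorly measured. Within the 6, Hsp67Bc lay nearest to the mean profile with a distance of 0.244 and CG4461 farthest with a distance of 1.040.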

How the data were processed

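Reads were trimmed with Trim Galore, aligned with STAR to BDGP6 and counted per gene with HTSeq by the authors, who deposited raw counts without normalization. Mode and strand setting of the counting are not given in the sources used here. Summary lines of HTSeq were left out, of which reads overlapping several genes made up between 7.47% and 8.00% per library. A table deposited by the authors with their DESeq2 comparison (mean normalized count, log2 fold change, standard error, statistic and p-values) was not used. Counts passing filterByExpr (9609 genes) were TMM-normalized and compared with edgeR 4.0.16 (R 4.3.3), with Benjamini-Hochberg adjustment and a threshold of 0.05. Alternatives were DESeq2 1.42.0, limma-voom (limma 3.58.1), DESeq2's size factors, library size alone, other filters on low counts, robust dispersions, a replicate block, coding length for RPKM, and leaving out each library. SciPy 1.17.1 gave the exact permutation tests. The fits were tested on simulated data, in which genes varied independently and with the same dispersion. That test does not show how the fits behave with the spread of the libraries here. Named were the genes of the set with counts, other alpha-crystallin genes, listed regulators and partners, and the 5 genes most alike in log2 CPM (pseudocount 0.5). The genes and lists were chosen with earlier results of these data known. The labels do not pair the replicate numbers, and the deviations of same-numbered libraries were correlated at -0.11 over 8398 genes (mean count above 100). The p-values measure the spread between pools of heads, described as biological replicates in the study's methods.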

Additional observations from a re-analysis of the deposited data

How the results depend on the processing

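Over all genes, edgeR called 180. DESeq2 called 913, limma-voom 118, edgeR without a filter on low counts 82 and with robust dispersions 359, and leaving out single libraries gave between 2 and 554. Of the 6 small heat-shock protein genes, 0 were called by edgeR, 4 by DESeq2, 2 with robust dispersions and between 0 and 3 with a library left out. With the replicate block 297 genes and 2 of the 6 were called. A crossed replicate block was added after seeing the data, because the deviations of same-numbered libraries were negatively, though only weakly, correlated (-0.11). It called 797 genes and 3 of the 6. The cause of these differences was not tested.

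The median log2 fold change of the 6 genes was 0.77 and lay between 0.60 and 1.20 with a library left out, and the log2 ratio of their summed CPM was 0.53 and lay between 0.19 and 0.98. Of 72 alternative values of single genes, 58 kept direction and side of the threshold, 13 passed it, and 1 reversed, Hsp26, which lay between -0.10 (without control replicate 1) and 1.38 (without control replicate 2). Per coding length in place of exon length the control RPKM was 23.1 for Hsp23, 6.63 for Hsp27, 7.85 for Hsp67Ba and 31.4 for Hsp67Bc. Replicates were farther apart than counting error gives (chi-square per degree of freedom 72.6 in control siblings and 53.1 in NelfA*/+ flies), and no other depth was tried.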
